A study of Ovis aries with 3 samples.

Results

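Fibroblast-like mesenchyme of sheep embryos was examined here as the cells of 3 droplet libraries that carried transcripts of extracellular matrix genes. A kept cell was counted as fibroblast-like when at least 2 of the 3 genes *DCN*, *LUM* and *POSTN* had at least 1 unique molecular identifier (UMI, a tag that marks 1 captured RNA molecule), when the red cell gene *AHSP* had fewer than 5 UMIs, and when *TWIST1* and *MEOX1*, seen together in somite-derived cells, were not both detected. The cells were thus chosen by measured UMIs of these genes, whose levels are given only as a description. By this rule 3970 of 31576 kept cells (12.6%) were fibroblast-like. The libraries came from whole embryos that were digested with collagenase, treated to lyse red blood cells and loaded on the 10x Genomics 3′ platform. E16 HS and E19 HS were wild-type Hu sheep (HS) at day 16 and day 19 of embryonic development. E19 HSTS was a Hulunbuir short-tailed sheep (HSTS) at day 19, a breed that carries a missense mutation in the DNA-binding domain of *T*, a transcription factor of mesoderm and notochord; the study genotyped adult animals. Each condition had 1 library, so breed, embryo, stage and library cannot be told apart and no test between conditions was possible. The label of the E16 HS library names 1 embryo, while the study's methods list 3 embryos for this condition, and which of these holds could not be settled.

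Fibroblasts and their embryonic precursors build the connective tissue between epithelia, vessels and muscle. They secrete fibrillar collagens, whose chains are folded and hydroxylated in the endoplasmic reticulum, cut outside the cell and crosslinked into fibrils, and they add small proteoglycans such as decorin (*DCN*) and lumican (*LUM*) that bind these fibrils and set their width. Periostin (*POSTN*) is a matricellular protein that helps link collagen to other matrix proteins. In the early embryo such cells arise mainly from lateral plate mesoderm, paraxial mesoderm and cranial neural crest.

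The fibroblast-like share of kept cells was 19.7% in E16 HS (2234 of 11329 cells, exact 95% binomial interval 19.0 to 20.5%), 9.81% in E19 HS (1043 of 10629, 9.25 to 10.4%) and 7.21% in E19 HSTS (693 of 9618, 6.70 to 7.74%). The share was thus highest in the E16 library, and the intervals of the 3 libraries did not overlap. All intervals given here cover counting error only, not the spread between embryos. Depth differed between libraries too. The median member held 12064 UMIs in E16 HS, 6846 in E19 HS and 8117 in E19 HSTS. The median of the other kept cells was 8304, 6902.5 and 8777 UMIs. When each cell was thinned to 3000 UMIs and shallower cells were left out, the shares were 17.7%, 7.21% and 5.24%, in the same order. Free RNA in the droplets can add UMIs to any cell, and it was measured in cells with at least 5 UMIs of *AHSP*, which are red cell precursors and should lack matrix transcripts. Of these, 4.67% in E16 HS, 1.64% in E19 HS and 1.40% in E19 HSTS had at least 2 of the 3 marker genes, at median depths of 14233, 17742 and 17925 UMIs. After thinning these background shares were 1.83%, 0.929% and 0.641%, below the fibroblast-like share in every library.

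The marker genes that chose the cells were not detected in the same mix. *DCN* with *LUM* but not *POSTN* was the pattern of 62.6% of the E16 HS members, 19.8% of the E19 HS members and 20.3% of the E19 HSTS members. All 3 genes together were found in 22.8%, 30.7% and 41.1%. *LUM* with *POSTN* but not *DCN* was found in 6.76%, 34.7% and 21.8%. At the edge of the rule, 132, 85 and 70 members had exactly 1 UMI of each of exactly 2 genes, and 1745, 2037 and 1765 cells that passed the other conditions had only 1 of the 3 genes and were left out. At the edge of the *AHSP* limit, 42, 0 and 1 members had 3 or 4 UMIs of it, and 7, 0 and 2 cells with 2 marker genes were left out with 5 or 6. The limit on *AHSP* removed 93, 23 and 35 cells, and the limit on *TWIST1* with *MEOX1* removed 33, 32 and 41.

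*COL1A1* and *COL3A1*, the main chains of type I and type III collagen, were not used by the rule and served to check the label. Both were detected in 89.4% of the members in E16 HS, 61.7% in E19 HS and 69.0% in E19 HSTS. Among the other kept cells both were detected in 13.7%, 12.0% and 10.5%, and among cells with at least 5 UMIs of *AHSP* in 9.38%, 2.43% and 2.64%. Cells with only 1 of the 3 marker genes lay between, at 24.2%, 25.1% and 24.3%. At full depth the label therefore held for most members, with a lower share in the E19 libraries than in E16 HS. At an equal depth of 3000 UMIs, *COL1A1* was detected in 85.4%, 48.8% and 54.5% of the members against 10.05%, 9.78% and 7.38% of the other kept cells. *COL3A1* was detected at that depth in 91.7%, 74.8% and 79.6% of the members against 28.6%, 24.3% and 23.0%. At full depth *COL1A1* alone was detected in 64.5% of the E19 HS members. For E19 HS the share of members with *COL1A1* thus depended on depth, while at both depths it lay above that of the other cells.

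**Figure D1:**
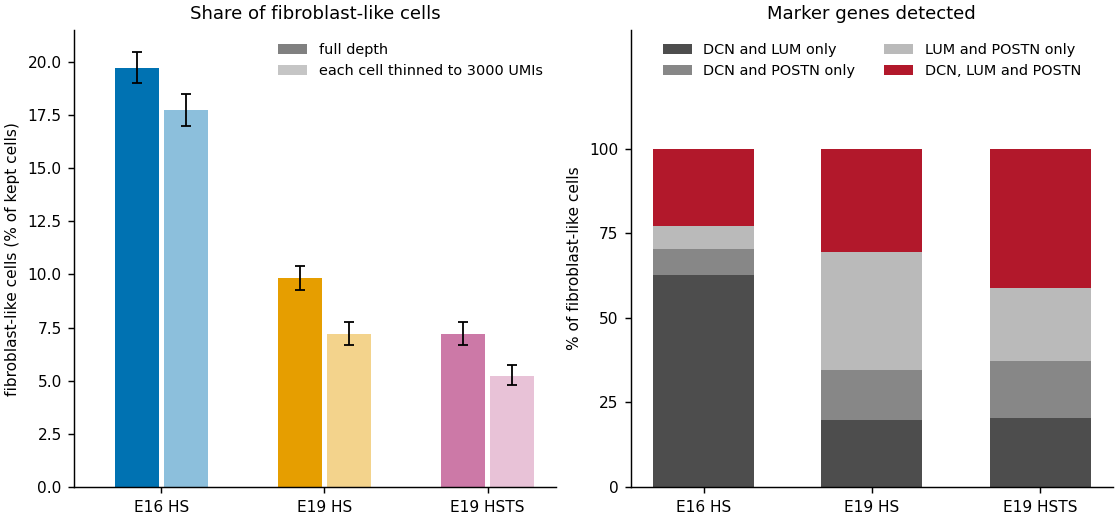
Left, share of kept cells that were fibroblast-like in each library, at full depth and thinned to 3000 UMIs (percent, bars with exact 95% binomial intervals), and right, the combinations of marker genes detected in these cells (percent of members, stacked). The E16 HS library had the highest share (19.7%), and *DCN* with *LUM* alone made up 62.6% of its members against 19.8% in E19 HS and 20.3% in E19 HSTS.

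Levels are given below as counts per 1000000 (CPM), the UMIs of a gene summed over the members of a library and divided by all their UMIs, of which there were 28243098 in E16 HS, 8164140 in E19 HS and 6108648 in E19 HSTS. Since 3′ UMI counts are not scaled by gene length, levels are compared between libraries and not between genes. A gene was counted as higher or lower when its CPM differed at least 2-fold and the higher side held at least 50 UMIs. With 1 library for each condition, this is a rule of size and not a test. Facts shared by all cells of the series were few: a cell was kept with 200 to 6000 genes and 1000 to 30000 UMIs if no more than 10% of these were mitochondrial, members had a median of 3.10 to 3.22% mitochondrial UMIs, and 38 to 42 barcodes were shared by any 2 libraries, of which at most 1 belonged to members in both.

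Among the genes of the rule, *DCN* stood at 1788 CPM in E16 HS (exact Poisson interval 1773 to 1804), 1316 in E19 HS (1291 to 1341) and 1329 in E19 HSTS (1300 to 1358). *LUM* stood at 1118, 569 and 483 CPM. *POSTN* ran the other way, with 170 CPM in E16 HS (165 to 175), 801 in E19 HS (782 to 821) and 993 in E19 HSTS (968 to 1018). Of the genes that the rule did not use, *COL1A1* stood at 2705 CPM in E16 HS (2686 to 2724), 732 in E19 HS (713 to 750) and 853 in E19 HSTS (830 to 877), and *COL3A1* at 2334, 1151 and 1310 CPM. For each of these genes the E19 libraries lay nearer to each other than to E16 HS. Per cell, the median member of E16 HS had 24.7 *COL1A1* UMIs per 10000 (quartiles 7.52 and 37.4), the median member of E19 HS had 1.72 (0 and 6.22), and the median member of E19 HSTS had 2.46 (0 and 8.40). The quartile ranges of E16 HS and E19 HS did not overlap for this gene.

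The members were then set beside the other kept cells of their own library. Since cells were chosen for transcripts of matrix genes, these ratios describe the cells and are no independent finding. Over all genes, 980 of 10892 (9.0%) in E16 HS, 835 of 10829 (7.71%) in E19 HS and 1898 of 10973 (17.3%) in E19 HSTS were at least 2-fold above the other kept cells, and 395 of 10238 (3.86%) were so in all 3 libraries. The median ratio over all genes was 1.08, 1.22 and 1.47. Lists are given below with all their genes, not all of which were measured, while the shares over all genes rest on measured genes.

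Of the 9 fibrillar collagen genes, 6 were at least 2-fold above the other cells in all 3 libraries. *COL1A1* was 43.2-fold, 22.4-fold and 34.4-fold above them in E16 HS, E19 HS and E19 HSTS, and *COL3A1* 12.96-fold, 8.01-fold and 9.78-fold. *COL2A1*, the collagen of cartilage and notochord, was not among the 6, with 69.6 CPM against 123 in E16 HS, 136 against 72.7 in E19 HS and 148 against 69.5 in E19 HSTS. Among 17 other collagens 5 were above in all libraries, of which *COL12A1*, a collagen that sits on the surface of fibrils, reached 164, 44.2 and 60.4 CPM in members against 4.75, 4.93 and 5.72 CPM in the other cells. Of 20 collagen folding and crosslinking genes 14 were above in all libraries. They included *SERPINH1*, the chaperone of collagen, with 543, 172 and 197 CPM, *LOX*, which crosslinks collagen and elastin, with 30.4, 15.1 and 14.9 CPM, and *PCOLCE*, which speeds the removal of the collagen propeptide, with 307, 312 and 276 CPM. *PCOLCE* was at a like level in all 3 libraries while *SERPINH1* was not.

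Of the small leucine-rich proteoglycans, 3 of 12 were measured in each library, and *DCN* and *LUM*, which the rule used, were above in all libraries. *BGN* (biglycan) stood at 3.15, 15.3 and 7.86 CPM. Among 26 matricellular and elastic fibre genes 8 were above in all libraries. *SPARC*, which binds collagen and calcium, stood at 89.8, 69.9 and 80.4 CPM against 16.9, 19.1 and 14.5 CPM in the other cells. Among 15 matrix proteases and inhibitors 5 were above, with *TIMP1*, an inhibitor of metalloproteinases, at 500.3, 499 and 453 CPM against 151, 114 and 68.2 CPM. In members *TIMP1* was thus at a like level in the 3 libraries.

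Of 20 fibroblast surface receptors 5 and of 34 secreted signals 10 were at least 2-fold above the other cells in all 3 libraries. *PDGFRA*, the receptor through which platelet-derived growth factor acts on mesenchyme, stood at 31.1, 30.6 and 42.6 CPM against 14.5, 9.04 and 9.51 CPM. *WNT2*, a Wnt ligand, was at a like level in the 3 libraries, with 51.4, 57.6 and 66.0 CPM in members and 2.39, 2.56 and 2.18 CPM in the other cells. *IGF2*, the insulin-like growth factor of the fetus, stood at 1711, 1763 and 2190 CPM against 512, 452 and 383 CPM.

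Among transcription factors, 4 of 32 mesenchymal factors (20 to 21 measured in a library) and 6 of 20 lateral plate and limb factors (11 to 14 measured) were above in all 3 libraries. Of 16 craniofacial factors only 6 to 7 were measured in a library, and 0 were above in all. With a share of 3.86% over all genes, nothing is read from this 0. *HAND2*, a factor of lateral plate, limb and heart mesoderm, stood at 81.6, 48.0 and 59.8 CPM against 9.45, 5.78 and 5.83 CPM. *GATA6*, a factor of lateral plate and endoderm, stood at 20.9, 18.6 and 24.1 CPM against 2.31, 1.84 and 1.88 CPM. Of the HOX genes, 0 of groups 1 to 4, 0 of groups 5 to 8 and 2 of groups 9 to 13 were above in all libraries. Only 10 to 12 genes of each of these sets were measured in a library, so the counts of 0 are not read as a result either. Of the 15 genes with the largest lowest ratio over the libraries, *DCN*, *COL1A1*, *WNT2*, *LUM* and *COL1A2* led, and the others included *RARRES1*, *POSTN*, *MMP23B*, *LGALS3*, *A2M*, *GATA6*, *COL12A1*, *HAND2* and *AEBP1*. *RARRES1*, a retinoid-regulated membrane protein, stood at 136, 38.8 and 30.3 CPM, and *AEBP1*, a collagen-binding matrix protein, at 45.1, 19.1 and 15.7 CPM.

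Keratin transcripts were frequent in these cells. *KRT19*, a keratin of simple epithelia that is also known in some embryonic mesoderm, stood at 4392 CPM in E16 HS, 1437 in E19 HS and 2192 in E19 HSTS, while the other kept cells had 618, 197 and 136 CPM. *KRT18* stood at 3023, 1385 and 1951 CPM, and *KRT8* at 730, 263 and 475 CPM. *EPCAM*, which defines epithelial cells, stood at 23.8, 18.9 and 35.0 CPM, below or near its level of 70.0, 37.0 and 30.5 CPM in the other cells, and was detected in 10.1%, 6.14% and 7.79% of the members. The epithelial list summed to 3833, 1707 and 2529 CPM in members against 1314, 486 and 391 CPM, with *KRT8* and *KRT18* the 2 of its genes above in all libraries.

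Markers of other cells were present too, and their part in the results was not tested. Erythroid genes summed to 134, 91.0 and 112 CPM in members against 1953, 1390 and 2341 CPM in the other cells, and 8 of 8 were at least 2-fold below the other cells in every library, where 7.90%, 5.10% and 4.49% of all genes were. Since the rule left out cells with 5 or more *AHSP* UMIs, this follows from the choice of cells and nothing is read from it. Endothelial genes summed to 27.9, 144 and 101 CPM, against 25.2, 80.4 and 52.6 CPM, so they lay above the other cells in each library, most in both E19 libraries. Neural genes summed to 269, 596 and 557 CPM. Hepatic genes summed to 1268, 1839 and 2400 CPM against 790, 1227 and 1022 CPM. *APOA1*, an apolipoprotein, made up 1143, 721 and 655 CPM of the sums in members. The sums lay above the other cells in all 3 libraries, but single genes did not all do so. In E16 HS 7 of 8 were at least 2-fold below the other cells, 1 was above, and the median ratio was 0.229. *SERPINA1*, also of this list, had 66.3% and 64.9% of its UMIs in 5 members of E19 HS and E19 HSTS. Cardiac genes summed to 39.5, 71.8 and 227 CPM against 79.1, 289 and 328 CPM. Skeletal muscle genes summed to 1.20, 2.94 and 2.13 CPM and neural crest genes to 5.70, 11.4 and 14.7 CPM. The share of members within the 8% of kept cells with the highest doublet score was 10.3%, 11.4% and 10.5%.

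**Figure D2:**
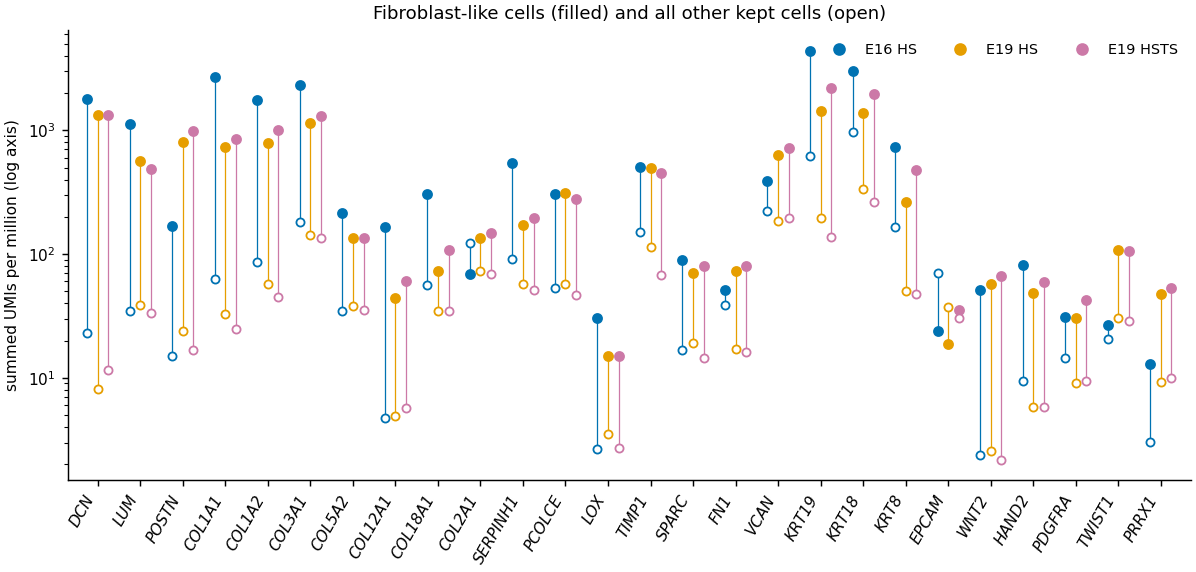
CPM (log axis) of named genes in fibroblast-like cells and in the other kept cells of each of the 3 libraries, by role. Type I and III collagen, *LOX*, *WNT2* and *HAND2* lay above the other cells in all 3 libraries, and *EPCAM* lay below them in E16 HS and E19 HS.

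The first comparison between libraries set day 16 against day 19 within Hu sheep. In the E16 HS members, 4 of 7 measured fibrillar collagens and 5 of 19 genes of collagen folding and crosslinking stood at least 2-fold higher, while 8 of 17 matricellular and elastic fibre genes and 7 of 18 mesenchymal transcription factors stood at least 2-fold lower. The lower genes included *POSTN* and *TWIST1*, which the rule used, so these counts are in part set by the choice of cells. Of 8756 genes, 837 (9.56%) were at least 2-fold higher and 509 (5.81%) at least 2-fold lower in E16 HS than in E19 HS, with a median log2 ratio of 0.16. The members held 28243098 UMIs in E16 HS and 8164140 in E19 HS. The limit of 50 UMIs on the higher side was thus a lower CPM in E16 HS. It let in genes higher in E16 HS more easily, so the balance of these counts is not read. Of the fibrillar collagens 0 were lower, and their median log2 ratio was 1.02. For *COL1A1* the ratio of E16 HS to E19 HS was 3.70 (exact Poisson interval 3.60 to 3.80), for *COL1A2* 2.23 (2.17 to 2.29), for *COL3A1* 2.03 (1.99 to 2.07) and for *COL5A1*, a chain that starts fibrils, 3.40 (2.93 to 3.96). With every cell weighted equally, by the mean of the shares of UMIs per cell, *COL3A1* had a ratio of 1.98, under the limit, and 3 fibrillar collagens were higher. In the other kept cells the ratio of *COL1A1* was 1.92 and that of *COL3A1* 1.25. The size of these ratios moved with the choice of cells. Among members with all 3 of *DCN*, *LUM* and *POSTN* the ratio was 1.94 for *COL1A1*, 1.46 for *COL1A2* and 1.35 for *COL3A1*, below the limit of 2-fold in each. Among members with both collagens detected it was 1.69 for *COL1A2* and 1.58 for *COL3A1*. For *DCN*, of the rule, the ratio was 1.36 (1.33 to 1.39) over all members and turned to 0.767 among those with all 3 genes. The only measured fibrillar collagen with a ratio below 1 was *COL2A1*, with 69.6 against 136 CPM and a ratio of 0.513 (0.476 to 0.553), just above the limit for a lower gene.

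Among collagen folding and crosslinking genes 1 of 19 was lower beside the 5 that were higher, of which 3 were left by the mean of per-cell shares. *SERPINH1* had a ratio of 3.17 (3.00 to 3.35), the prolyl hydroxylase gene *P4HA1* 2.71 (2.53 to 2.91) and the lysyl hydroxylase gene *PLOD2* 2.94 (2.60 to 3.34). *LOXL1*, a lysyl oxidase known for elastin, was the lower one, with 25.0 CPM in E16 HS and 81.5 in E19 HS. Of 14 other collagens 3 were higher and 7 lower, or 3 and 3 by the mean of per-cell shares. *COL18A1*, a basement membrane collagen, had a ratio of 4.17 (3.84 to 4.54) and *COL12A1* 3.71 (3.33 to 4.14), while *COL6A3*, of the microfibril-forming type VI collagen, stood at 3.05 and 6.37 CPM, a ratio of 0.478 that was 0.557 by the mean of per-cell shares.

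Of 3 measured small leucine-rich proteoglycans, *BGN* was lower, with 3.15 CPM in E16 HS and 15.3 in E19 HS, and *LUM* of the rule had a ratio of 1.97 (1.91 to 2.03), or 1.19 among members with all 3 genes, and it was below 1 within each of the 4 subgroups of members in which both libraries could be compared. Of 17 matricellular and elastic fibre genes 8 were lower in E16 HS and 1 was higher. *POSTN*, a gene of the rule, was 4.72-fold lower, and its ratio was 0.364 among members with all 3 genes of the rule. *TNC* (tenascin C) stood at 12.5 CPM in E16 HS and 34.5 in E19 HS, *TGFBI*, a collagen-binding relative of periostin, at 4.82 and 20.5 CPM, and *CCN1*, a matricellular signal protein, at 3.65 and 36.4 CPM, which is 9.98-fold lower in E16 HS. *NID2*, a basement membrane linker, was the higher one, with 88.5 against 22.5 CPM. In the other kept cells the ratio of *TNC* was 1.04 and that of *TGFBI* 1.03, so these 2 genes stood lower at E16 over all members and not among the rest, a difference that was not tested. Within the subgroups of members described below, *TNC* did not keep 1 direction. Its ratio was 0.402 in subgroup 3, 0.445 in subgroup 4 and 2.31 (1.52 to 3.64) in subgroup 9. *CCN1* was lower in members and in the other kept cells, with a ratio of 0.170 in the latter. Of 9 matrix proteases and inhibitors 1 was higher and 3 were lower, with the protease gene *FAP* at 2.37 and 15.4 CPM.

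Secreted signals were divided, with 4 of 26 higher and 9 lower in E16 HS. *BMP7*, a bone morphogenetic protein, stood at 55.0 CPM in E16 HS and 10.9 in E19 HS, a ratio of 5.04 (4.07 to 6.31). *FGF7*, a growth factor that mesenchyme sends to epithelia, stood at 16.0 and 3.18 CPM, with a ratio of 5.04 (3.39 to 7.79), which was 2.25 by the mean of per-cell shares. In the other direction *DLK1*, a Notch-like inhibitor of fat cell formation, was 8.92-fold lower in E16 HS, at 24.7 against 220 CPM. Its 1799 UMIs in E19 HS came from only 145 of the 1043 members. The Wnt antagonist *SFRP1* was 4.59-fold lower and *IGFBP3*, which binds insulin-like growth factors, 4.02-fold lower. *PTN* (pleiotrophin) was 3.04-fold lower. *IGF2* and *WNT2* stood close in both libraries over all members, with ratios of 0.970 (0.952 to 0.989) and 0.892 (0.804 to 0.992). Within the subgroups described below, the ratio of *WNT2* was 0.0893 (0.0178 to 0.276) in subgroup 3, on 3 and 53 UMIs. In subgroup 4 it was 0.762 (0.502 to 1.13).

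Of 18 mesenchymal transcription factors 7 were lower and 2 higher in E16 HS. *PRRX1*, a homeobox factor of limb and facial mesenchyme, stood at 12.9 and 47.9 CPM, *NR2F2* at 37.4 and 137 CPM, and *EBF2* at 2.34 and 15.8 CPM. *TWIST1* was 4.08-fold lower, with 26.6 against 109 CPM, but the rule touched this gene. *TCF21*, a factor of visceral and cardiac fibroblasts, was 2.10-fold higher (1.81 to 2.44), but 1.79-fold and so within the limit by the mean of per-cell shares. *FOXF1*, a factor of visceral mesoderm, was 2.82-fold higher (1.83 to 4.53). Of 12 lateral plate and limb factors 5 were higher and 2 lower, or 3 and 2 by the mean of per-cell shares, with *PITX1*, a hindlimb factor, at 39.9 and 14.9 CPM. Of 7 HOX genes of groups 9 to 13, 3 were higher and 0 lower, including *HOXA13* at 14.6 and 2.82 CPM, with a ratio of 5.19 (3.41 to 8.28), and *HOXA11* at 38.1 and 11.1 CPM. *HOXC12* had 165 UMIs in E16 HS, 2 in E19 HS and 0 in E19 HSTS. Of 12 cell cycle genes 0 were higher and 0 lower.

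By size of the ratio, *REG4*, a secreted lectin of gut epithelium, came first, with 2218 UMIs in 758 members of E16 HS (33.9%), 0 UMIs in E19 HS and 3 in E19 HSTS. It was at least 214-fold higher in E16 HS, with E19 HS set at a floor of 3 counts. *NEBL*, an actin-binding protein, was 15.5-fold higher (11.6 to 21.2) and *PMP22*, a membrane protein of myelin that mesenchyme also makes, 12.0-fold higher (9.52 to 15.4), while in the other kept cells the ratio of *NEBL* was 0.343. Among members with all 3 genes of the rule the ratios of *REG4*, *NEBL* and *PMP22* were at least 37.1, 4.60 and 2.79. Genes at the other end included some that came from few cells. *SERPINA1*, a liver protease inhibitor, had 3666 UMIs in 59 members of E19 HS, 66.3% of them in 5 cells, and its ratio of 0.0285 turned to 3.21 among members with all 3 genes of the rule. *FOS*, an immediate early gene, was spread over many cells, with 147 UMIs in 134 members of E16 HS, 1972 UMIs in 581 members of E19 HS and 1607 in 427 members of E19 HSTS. It was 46.4-fold lower in E16 HS, and its ratio was 0.0286 in the other kept cells as well.

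The second comparison set the short-tailed breed against Hu sheep at day 19. Here the ratios of *COL1A1*, *COL1A2* and *COL3A1* lay nearer to 1 than between the stages. Of 6382 genes, 123 (1.93%) were at least 2-fold higher and 51 (0.799%) at least 2-fold lower in E19 HSTS, with a median log2 ratio of 0.18. A scaling by the trimmed mean of M values (TMM), which centres the bulk of genes, multiplied every ratio by 0.851, brought 61 genes above and 88 below the limit, and so turned the balance of the counts around. Under TMM the ratio of *COL1A1* was 0.992, that of *COL3A1* 0.969 and that of *DCN* 0.859, so directions between these are not read from ratios near 1.

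Of 7 fibrillar collagens 0 were higher and 0 lower, with a median log2 ratio of 0.22, or -0.01 under TMM. *COL1A1* had a ratio of E19 HSTS to E19 HS of 1.17 (1.12 to 1.21), *COL1A2* 1.26 (1.22 to 1.31) and *COL3A1* 1.14 (1.11 to 1.17). In the other kept cells these ratios were 0.759, 0.787 and 0.933. Of 16 matricellular and elastic fibre genes 0 were higher and 0 lower, and *POSTN*, of the rule, had a ratio of 1.24 (1.20 to 1.28). The rule genes *DCN* and *LUM* had ratios of 1.01 (0.981 to 1.04) and 0.849 (0.810 to 0.889). Of 16 mesenchymal transcription factors 0 were higher and 0 lower, with *TWIST1* at 109 and 106 CPM and *PRRX1* at 47.9 and 52.7 CPM in E19 HS and E19 HSTS. With shares of 1.93% and 0.799% over all genes, these counts of 0 are not read as a result.

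Among matrix genes, 1 of 8 proteases and inhibitors was higher, and 1 of 17 folding and crosslinking genes and 1 of 12 other collagens were lower. Over all genes 1.93% were higher and 0.799% lower, so nothing is read from these counts. *FAP*, a membrane-bound serine protease of activated fibroblasts, stood at 15.4 CPM in E19 HS and 45.5 in E19 HSTS, a ratio of 2.95 (2.38 to 3.67), or 2.51 under TMM. It had 278 UMIs in 151 members of E19 HSTS, of which the top 5 cells held 9.71%, and 126 UMIs in 82 members of E19 HS, and its ratio in the other kept cells was 1.88. *PLOD1*, a lysyl hydroxylase, was lower, with 21.3 and 10.6 CPM and a ratio of 0.499 (0.370 to 0.667), and it was 0.501 in the other kept cells too. *COL6A3* had 52 UMIs in E19 HS and 17 in E19 HSTS, a ratio of 0.437 that was 0.567 and so within the limit by the mean of per-cell shares. *BMP7* was higher among secreted signals, at 10.9 and 23.9 CPM, with a ratio of 2.19 (1.67 to 2.89), which is 1.87 under TMM and so within the limit. *DLK1* was lower, with 220 and 109 CPM, a ratio of 0.496 (0.453 to 0.542), and 0.595 in the other kept cells.

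Of the HOX genes of groups 5 to 8, which mark the trunk along the head-to-tail axis, 3 of 6 measured genes were higher and 0 lower, and 3 of 6 were higher also under TMM. *HOXA6* stood at 10.2 CPM in E16 HS, 14.9 in E19 HS and 36.2 in E19 HSTS, with a ratio of E19 HSTS to E19 HS of 2.42 (1.93 to 3.05). *HOXC6* stood at 5.67, 2.82 and 8.19 CPM, a ratio of 2.91 (1.74 to 4.99) on 23 and 50 UMIs. *Hoxc8* stood at 8.85, 7.10 and 19.0 CPM, a ratio of 2.67 (1.93 to 3.73). In the other kept cells the ratios of these genes were 1.29, 1.27 and 1.02. *HOXB9*, of the groups 9 to 13, stood at 12.5, 23.3 and 47.0 CPM, with a ratio of 2.02 (1.67 to 2.44), or 1.72 under TMM.

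*SOX6*, a factor of cartilage precursors and muscle, stood at 9.63 CPM in E16 HS, 12.5 in E19 HS and 31.1 in E19 HSTS, a ratio of E19 HSTS to E19 HS of 2.49 (1.95 to 3.20), against 1.12 in the other kept cells. Its UMIs came from 136 members of E19 HSTS and 89 of E19 HS. *KRT19* had a ratio of 1.53 (1.49 to 1.56) in members and 0.692 in the other cells.

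The genes with the largest ratios were of other kinds. *GAPDH*, a glycolytic enzyme found in nearly every cell, had 15845 UMIs in E19 HS members and 49 in E19 HSTS members, and was 242-fold lower. In the other kept cells its ratio was 0.00304, so the gap held throughout the library. *RPS6*, a ribosomal protein, was 3.35-fold higher in members and 2.94-fold in the others. *MYL7*, a myosin light chain of the atrium, was 15.4-fold higher with 543 UMIs in 16 members of E19 HSTS, of which 1 cell held 54.7% and 5 cells 98.0%. *MYH7* and *MYL3*, also of heart muscle, had 87.7% and 87.1% of their E19 HSTS UMIs in 1 cell, and with a stricter filter on cells their ratios turned from 7.26 and 4.39 to 0.682 and 0.609. *HSPA1A*, a heat shock protein, was 5.65-fold higher, and 6.04-fold in the other kept cells. Of the genes that stood lower, *NDUFA4L2*, a mitochondrial protein known from low oxygen, had a ratio of 0.387 (0.329 to 0.453) and *GSTM3*, a glutathione transferase, 0.423 (0.385 to 0.465), with 0.245 and 0.311 in the other kept cells.

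**Figure D3:**
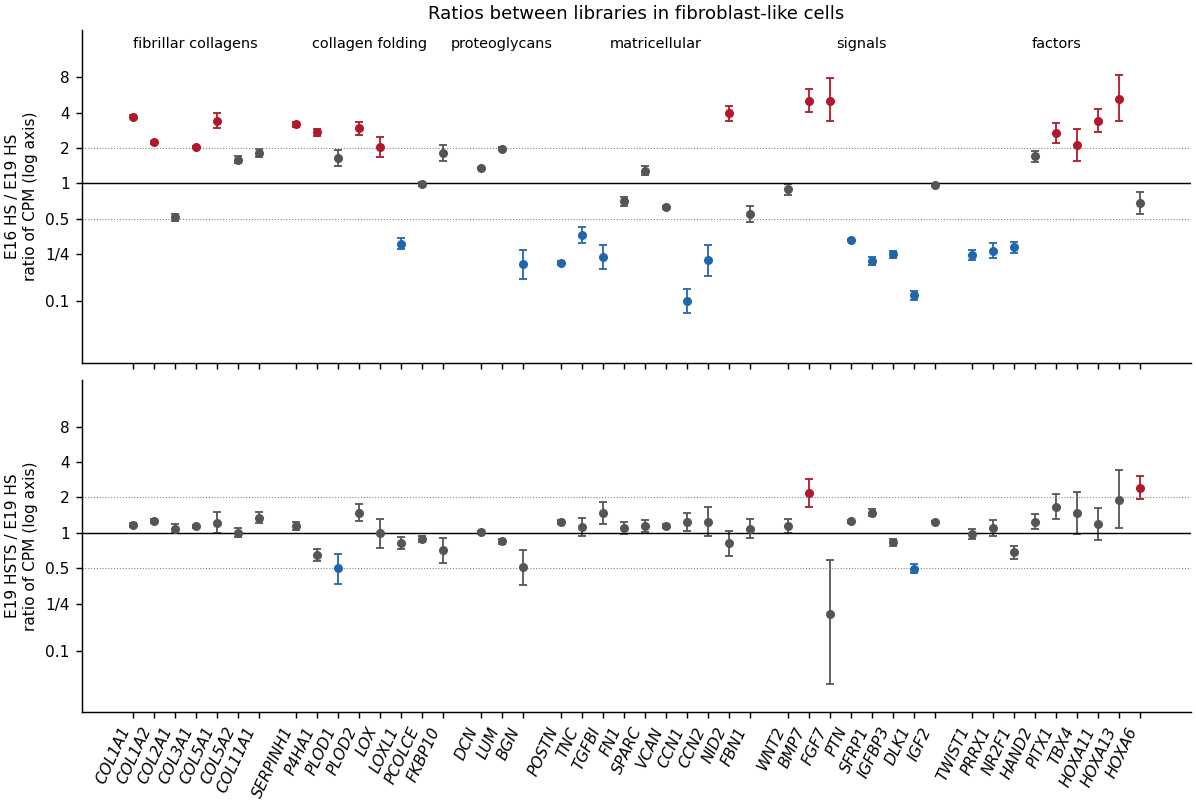
Ratios of CPM in fibroblast-like cells (log axis) with exact 95% Poisson intervals, E16 HS to E19 HS and E19 HSTS to E19 HS, for named genes by role. Dotted lines mark 2-fold, and colour marks genes past it with at least 50 UMIs in the higher library. *COL1A1* lay at 3.70 between the stages and at 1.17 between the breeds.

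The members were not alike among themselves. Clustering of the 3970 cells on 2000 variable genes gave 12 subgroups, which are called here by number and leading genes, since these genes are what made the subgroups. Most subgroups belonged to 1 stage, and with 1 library for each condition a subgroup held mainly by 1 library may be that library and not a kind of cell. Subgroup 1 (763 cells, of which 761 were from E16 HS) was led by *NEBL*, *FGF7*, *GPM6A* and *SNX10*, and it held 34.1% of the E16 HS members. Subgroup 5 (478 cells, 476 from E16 HS) was led by *EDNRB*, *PCOLCE2* and *PIEZO2*. Subgroup 7 (280 cells, with 250, 13 and 17 from E16 HS, E19 HS and E19 HSTS) was led by *FBP1*, *SEMA3E* and *LRP2*. These were the subgroups with the most collagen, and both collagens were detected in 98.6%, 99.8% and 100% of their cells.

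*COL1A1* stood at 3164 CPM in subgroup 1, 3276 in subgroup 5 and 4841 in subgroup 7, and *POSTN* at 10.7, 59.7 and 487 CPM. *KRT19* stood at 5397, 1210 and 10316 CPM in the same subgroups. Subgroup 6 (387 cells, 334 from E16 HS) was led by *HOXA5*, *IRX3* and *MEIS1*, with 662 CPM of *COL1A1*, 616 of *POSTN* and 4771 of *KRT18*. Subgroups held mostly by E16 HS thus differed widely in *POSTN*, the marker with the lowest share of members in that library.

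Subgroup 2 was the main E19 subgroup with high collagen, with 565 cells of which 335 were from E19 HS (32.1% of its members) and 229 from E19 HSTS (33.0%). Its leading genes were *MYL7*, *ACTG2*, *ACTC1* and *SPON2*, but *MYL7* was found in only 3.19% of its cells and *ACTG2* in 9.56%. It had 3043 CPM of *DCN*, 1598 of *POSTN* and 1678 of *COL1A1*, and both collagens were detected in 82.1% of its cells. Its level of *TOP2A*, an enzyme of dividing cells, was 98.8 CPM, the lowest of the 12 subgroups.

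Subgroups 3 and 4 held much of the rest of the E19 members and had lower matrix levels. Subgroup 3 (535 cells, with 140, 254 and 141 from E16 HS, E19 HS and E19 HSTS) was led by *EBF2*, *NEFM* and *LYPD1*, and had 251 CPM of *COL1A1*, 124 CPM of *SOX9*, a factor of cartilage precursors, and 287 CPM of *COL2A1*. Subgroup 4 (485 cells, with 65, 253 and 167) was led by *PAX6* and *SOX2*, found in 9.07% and 22.1% of its cells, and by histone genes, and had 439 CPM of *COL1A1* and 1320 of *TOP2A*. Both collagens were detected in 45.8% and 59.4% of these cells. Of the cells of subgroup 4, 21.9% were within the 8% of highest doublet score.

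Smaller subgroups were set apart by other genes. Subgroup 8 (204 cells, with 79, 83 and 42) was led by *MX1*, *RELN* and *IFI6*, the first of them in only 5.39% of its cells. It had 222 CPM of *TCF21*, 148 of *HAND2*, 769 of *DLK1* and 786 of *IGFBP3*, and 85.8% of its cells had both collagens. Subgroup 9 (161 cells, with 91, 35 and 35) was led by *TAC3*, *PAGE4* and *CXCL14*, and *EPCAM* was detected in 84.5% of its cells and *KRT19* at 8008 CPM, beside both collagens in 70.2%. *CLDN7* and *KRT7*, epithelial genes as well, were detected in 83.9% and 50.9% of its cells and *LUM* in 34.2%, and 18.6% of its cells had a high doublet score. In subgroup 10 (54 cells) the endothelial gene *PECAM1* was found in 98.1% of cells and both collagens in 22.2%. In subgroup 11 (34 cells, all from E16 HS) the urothelial gene *UPK3A* was found in 100% and both collagens in 38.2%. In subgroup 12 (24 cells) the plasma protein gene *APOA2* of liver was found in 100% and both collagens in 8.33%. For subgroups 10, 11 and 12 the measured genes went against the label of fibroblast-like mesenchyme. The cells with a high doublet score made up 35.2%, 32.4% and 37.5% of them. The epithelial genes of subgroup 9 went against the label too, although most of its cells had both collagens. In the larger subgroup 3 the label was weak, with both collagens in 45.8% of cells.

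**Figure D4:**
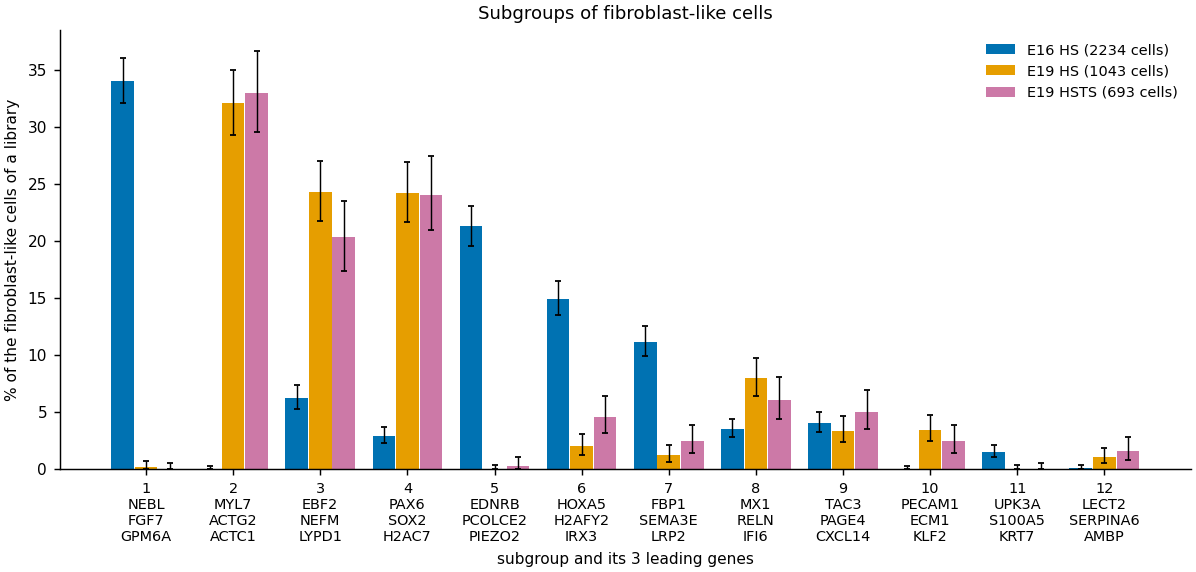
Share of the fibroblast-like cells of each library that fell into each of the 12 subgroups (percent, exact 95% binomial intervals), with the leading genes of each. Subgroups 1 and 5 held 34.1% and 21.3% of the E16 HS members and nearly none of the E19 members, and subgroup 2 held 32.1% of the E19 HS and 33.0% of the E19 HSTS members.

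**Figure D5:**
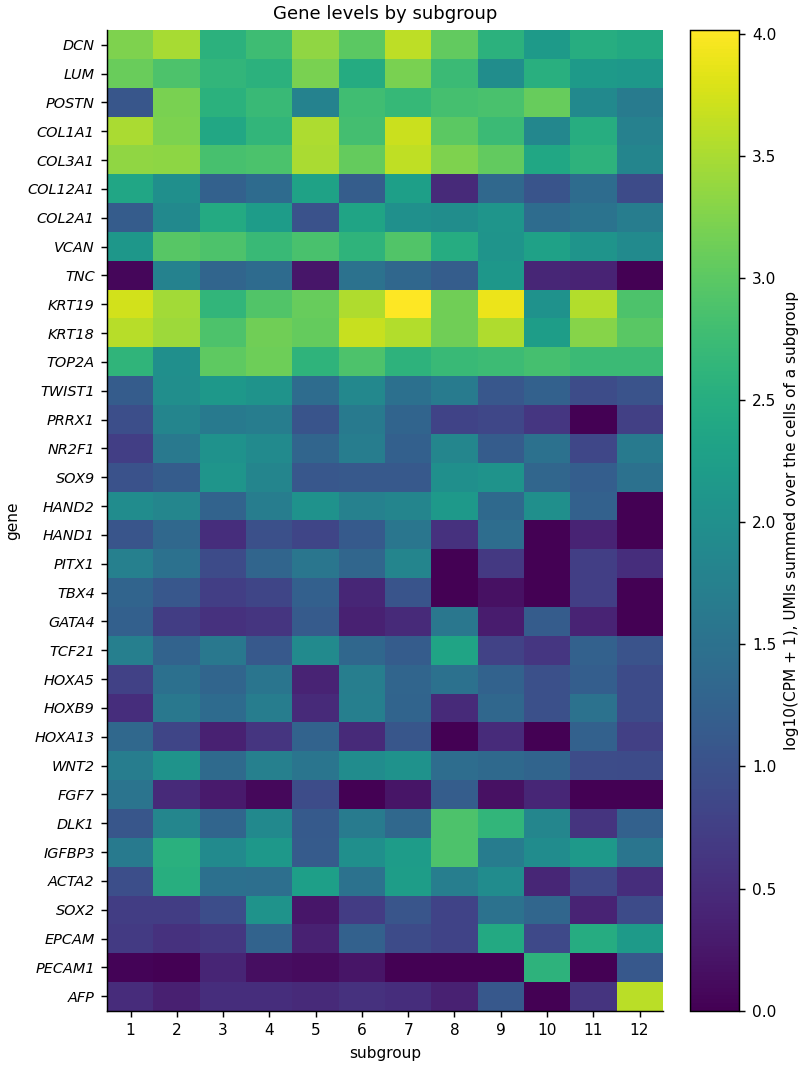
CPM of named genes in each subgroup on a log10(CPM + 1) colour scale, genes in rows and subgroups in columns. *COL1A1* ran from 57.1 CPM in subgroup 12 to 4841 CPM in subgroup 7, and *POSTN* from 10.7 CPM in subgroup 1 to 1598 CPM in subgroup 2.

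The library comparisons were repeated within the subgroups that held at least 30 cells of both libraries. Between the stages these were subgroups 3, 4, 8 and 9. They held only 140, 65, 79 and 91 of the 2234 members of E16 HS, so most members of that library were not compared. Subgroups 1, 5 and 7, with the most collagen, and subgroup 2 had too few cells of 1 library. The ratio of *COL1A1* in E16 HS to E19 HS was 0.912 (0.761 to 1.09) in subgroup 3, 2.39 in subgroup 4, 2.08 in subgroup 8 and 1.58 in subgroup 9, all below the 3.70 over all members. For *POSTN* it was 0.196, 0.450, 0.994 and 0.823. For *DCN* it was 0.855, 1.67, 0.402 and 0.889. For *LUM* it was 0.644, 0.732, 0.895 (0.764 to 1.05) and 0.328, against 1.97 over all members, so the direction over all members was not that within these subgroups. *POSTN*, *DCN* and *LUM* were used by the rule, so their ratios only describe the members. *DLK1* had a ratio of 0.906 (0.686 to 1.19) in subgroup 4, 0.0352 in subgroup 8 and 0.171 in subgroup 9. The part of the subgroup shares in the differences over all members was not tested.

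Between the breeds, subgroups 2, 3, 4, 8 and 9 could be compared. The ratio of *COL1A1* in E19 HSTS to E19 HS was 0.991 in subgroup 2, 2.71 in subgroup 3, 1.28 in subgroup 4, 1.41 in subgroup 8 and 0.389 in subgroup 9. In the same order the ratio of *LUM* was 0.778, 0.831, 0.905 (0.818 to 1.001), 0.655 and 0.235. Since *LUM* was used by the rule, these values only describe the members and no direction is read from them. *FAP* had a ratio of 3.54 in subgroup 2 and 4.82 in subgroup 4. *HOXA6* had a ratio of 1.96 in subgroup 2 and 2.79 in subgroup 4, *HOXB9* 2.42 and 1.93, and *SOX6* 2.46 and 2.74. These genes were thus above 1 in both of the largest E19 subgroups that could be compared for them. *DLK1* had ratios of 1.19 in subgroup 2, 0.639 in subgroup 4, 0.295 in subgroup 8 and 0.404 in subgroup 9, with the lowest ratios in the subgroups where its level was highest.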

How the data were processed

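Whole-embryo single-cell libraries were analysed for E16 HS, E19 HS and E19 HSTS, 1 each. The authors aligned reads to a sheep genome and made the deposited raw UMI counts per gene and barcode with Cell Ranger, version 6.1.2. These counts were used unscaled. Barcodes were kept by the limits of the study's filter on genes, UMIs and mitochondrial share, which left 31576 cells. The members and the gene lists were chosen with earlier results of these data known. Of 397 list symbols 362 were matched by symbol in the tables.

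UMIs were summed over the members of a library with pandas 2.3.3, scipy 1.17.1 and numpy 2.4.6 under Python 3.11.15. Shares had exact Clopper-Pearson intervals and CPM ratios exact conditional Poisson intervals, at the 95% level, and a gene at 0 was set to 3 counts per library for a ratio. No test across embryos was possible. Named were the genes of the rule, *COL1A1* and *COL3A1*, genes of the lists, the 15 symbols with the largest lowest ratio of members to other cells (at least 500 UMIs), the 10 symbols at each end of the ratios of both comparisons (at least 100 UMIs), and the leading genes of each subgroup. Of the genes that met these rules, 1 is not reported here. Subgroups were made in scanpy 1.11.5 from 2000 variable genes, 20 components, 15 neighbours and a Leiden resolution of 0.5. Doublets were not removed in the main setting, and the 8% of kept cells with the highest Scrublet scores were left out as an alternative. Other alternatives were a stricter filter (500 genes, 5% mitochondrial UMIs), all barcodes, thinning to 3000 UMIs, stricter marker rules, TMM factors of edgeR 4.0.16, the mean of per-cell shares, and limits of 10 or 200 UMIs on genes. The interval and thinning code was tested on simulated data. Genome coordinates and sequences were not used here.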

Additional observations from a re-analysis of the deposited data

How the results depend on the processing

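The order of the shares, E16 HS above E19 HS above E19 HSTS, was the same under every alternative run. In that order they were 19.0%, 8.89% and 6.47% over all barcodes, 16.4%, 5.83% and 4.67% with at least 2 UMIs of each marker, 4.502%, 3.01% and 2.96% with all 3 markers, and 17.7%, 7.21% and 5.24% after thinning to 3000 UMIs. With all 3 markers the shares of the E19 libraries were nearly equal, and no order is read between them. Alternatives chosen after seeing the data gave 17.6%, 6.06% and 4.97% with both collagens required, and 18.2%, 6.98% and 5.45% without the subgroups in which under 50% of cells had both. With all 3 markers, 405 genes were higher and 112 lower in E16 HS, and 29 were lower in E19 HSTS. A limit of 200 UMIs left 203 genes lower in E16 HS, 32 higher and 18 lower in E19 HSTS, and a limit of 10 UMIs gave 1274, 540 and 267, since fewer or more genes were tested. TMM scaling gave 61 higher and 88 lower in E19 HSTS. The other counts over all genes stayed within 1.5 times. Apart from the 405 with all 3 markers, they included the count of genes higher in E16 HS, 837 in the main setting. With 1274 genes lower at 10 UMIs, the balance of counts between the stages therefore depended on this limit. Counts within lists moved further by the mean of per-cell shares in E16 HS, where 3 in place of 7 other collagens and 1 in place of 3 craniofacial factors were lower, and 3 in place of 5 folding genes, 3 in place of 5 lateral plate factors and 1 in place of 2 mesenchymal factors were higher. Among ratios past the 2-fold limit, directions turned for *SERPINA1* (3.21, E16 HS to E19 HS, all 3 markers), and between breeds for *MYH7* (0.682) and *MYL3* (0.609) under the stricter filter, *MYL3* (0.773) with all 3 markers and *KLF2* (1.25) without the subgroups low in both collagens, and the cause was not tested. Of the values of ranked and marker genes under alternatives, 373 stayed within their counting interval, 138 moved beyond it and the 5 above turned. Ratios within the limit that crossed 1, as for *DCN*, *COL1A1* and *COL3A1* above, are not counted as turned. At a resolution of 1 there were 19 subgroups, and 7 of the 12 kept at least 90% of their cells in 1 of these. No paired analysis was possible because each condition had 1 library, and no replicate could be left out. Depth limits genes with few UMIs most.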

Other observations

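Some genes outside the comparisons above were spread unevenly among the fibroblast-like cells. *IFI6*, an interferon-induced gene, had 6 UMIs in E16 HS members, 121 UMIs in 49 members of E19 HS and 381 UMIs in 36 members of E19 HSTS, where 5 cells held 71.4% of them. *MX1*, also induced by interferon, had 124 UMIs in 13 members of E19 HSTS, with 83.9% in 5 cells. *TCF21* stood at 222 CPM in subgroup 8, against 81.5 CPM in subgroup 5 and 53.0 CPM in subgroup 1. *WT1*, a mesothelial and kidney factor, stood at 17.1 CPM in subgroup 8 and at 4.07 CPM in subgroup 2, its next highest level except in subgroup 12, with 7.13 CPM in 24 cells. *HAND1* stood at 36.7 CPM in subgroup 7, 26.4 CPM in subgroup 9 and 21.4 CPM in subgroup 2.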
